A study of Mus musculus with 9 samples.

Results

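CpG-dense differentially methylated regions (DMRs) were taken from the deposited list of DMRs in the hypothalamus of mouse pups after modified maternal separation (MMS). A DMR was included when it lay on an autosome and its sequence in the mm10 reference held at least 3 CpG dinucleotides per 100 bp. This rule used the sequence alone and gave 608 of the 12845 autosomal DMRs, or 4.73%, from a list of 12949. The remaining 104 listed DMRs lay on chromosomes X and Y and were left out, 5 of them at or over the same density.

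All pups were male C57/Bl6 mice and the hypothalamus was collected on postnatal day 6. MMS pups had been parted from the dam for 1.5 h on each of postnatal days 4 to 6. During that time they were turned onto their backs each time they became prone. Control pups came from the same litters. DNA of 10 animals per group was divided at random into 3 pools per group, so each library mixes several animals. Methylated DNA immunoprecipitation (meDIP) gave 3 control and 3 MMS libraries, beside 2 inputs and 1 IgG control.

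The list holds the mean of each group on a log2 scale of normalised reads and no value for any library, so the spread between pools and the reads of each library behind a value cannot be given, and no test between the groups was made here. Every listed DMR had already passed the authors' test between groups, so a direction and a size are described below rather than tested. For the inputs and the IgG control the labels give the same methylcytosine antibody, a point that could not be settled. In bulk tissue, a change in the make-up of cells and a change in methylation within cells cannot be told apart.

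In mammals most CpG dinucleotides are methylated and have been lost over time by deamination, so that CpG-dense sequence is rare. The densest stretches, CpG islands, mostly cover promoters and are usually free of methylation, whereas CpG-rich coding exons and CpG-rich promoters of transposable elements are usually methylated. An antibody against methylcytosine pulls down fragments in proportion to the methylated cytosines they carry, so dense and methylated sequence is captured well and an unmethylated island is captured poorly.

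Reference sequences of 10 of these DMRs are shown because they stand for the classes described below, which are promoters, coding exons, tandem arrays in introns and a dispersed repeat. Each is the stretch of up to 200 bases with the most CpG within its DMR, free of annotated UTR bases, on the plus strand of GRCm38 (mm10), with CG in capitals. They were chosen after their values were seen. Rexo1, Phf23 and Lrp3 are promoters, Tenm3, Trim71, Numbl and Fry lie at coding exons, Frmd4a and Bzw2 are intronic arrays, and the Pkhd1 intron holds a copy of a dispersed repeat.
Rexo1, chr10:80546466-80546624: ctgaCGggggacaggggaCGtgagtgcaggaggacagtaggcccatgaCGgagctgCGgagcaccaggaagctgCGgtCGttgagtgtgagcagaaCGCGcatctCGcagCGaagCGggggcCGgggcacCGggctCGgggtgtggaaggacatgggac
Phf23, chr11:69996129-69996328: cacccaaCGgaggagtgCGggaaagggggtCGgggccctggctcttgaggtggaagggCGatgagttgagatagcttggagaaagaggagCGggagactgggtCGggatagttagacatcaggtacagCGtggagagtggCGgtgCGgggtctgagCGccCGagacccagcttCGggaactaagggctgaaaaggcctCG
Lrp3, chr7:35216359-35216558: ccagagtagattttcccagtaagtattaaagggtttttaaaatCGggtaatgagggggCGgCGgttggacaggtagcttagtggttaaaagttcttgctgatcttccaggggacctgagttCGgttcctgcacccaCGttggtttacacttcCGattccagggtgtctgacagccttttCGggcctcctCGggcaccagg
Tenm3, chr8:48228576-48228775: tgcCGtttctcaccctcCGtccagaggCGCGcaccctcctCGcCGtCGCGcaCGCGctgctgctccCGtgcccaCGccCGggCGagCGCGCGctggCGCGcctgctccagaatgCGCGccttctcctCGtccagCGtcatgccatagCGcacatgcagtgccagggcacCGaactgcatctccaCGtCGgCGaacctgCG
Trim71, chr9:114512872-114513071: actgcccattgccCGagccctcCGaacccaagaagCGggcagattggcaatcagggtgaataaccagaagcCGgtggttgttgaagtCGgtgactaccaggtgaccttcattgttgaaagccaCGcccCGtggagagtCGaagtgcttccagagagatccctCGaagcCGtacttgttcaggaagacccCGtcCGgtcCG
Numbl, chr7:27273972-27274171: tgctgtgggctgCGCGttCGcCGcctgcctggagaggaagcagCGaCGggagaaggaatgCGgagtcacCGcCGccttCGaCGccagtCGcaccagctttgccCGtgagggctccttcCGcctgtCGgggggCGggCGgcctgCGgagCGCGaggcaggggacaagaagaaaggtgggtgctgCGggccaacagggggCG
Fry, chr5:150405260-150405411: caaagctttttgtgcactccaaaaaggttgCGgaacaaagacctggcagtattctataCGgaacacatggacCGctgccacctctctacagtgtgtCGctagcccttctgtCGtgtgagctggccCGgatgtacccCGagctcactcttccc
Frmd4a, chr2:4522121-4522320: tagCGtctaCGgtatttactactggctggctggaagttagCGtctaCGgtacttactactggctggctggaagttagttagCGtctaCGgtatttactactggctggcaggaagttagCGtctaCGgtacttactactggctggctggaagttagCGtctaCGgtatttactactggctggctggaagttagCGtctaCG
Bzw2, chr12:36105165-36105364: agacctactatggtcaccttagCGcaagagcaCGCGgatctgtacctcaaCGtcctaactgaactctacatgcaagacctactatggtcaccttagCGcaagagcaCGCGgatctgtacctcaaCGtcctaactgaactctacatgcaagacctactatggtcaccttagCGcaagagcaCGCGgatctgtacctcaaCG
Pkhd1, chr1:20574857-20575056: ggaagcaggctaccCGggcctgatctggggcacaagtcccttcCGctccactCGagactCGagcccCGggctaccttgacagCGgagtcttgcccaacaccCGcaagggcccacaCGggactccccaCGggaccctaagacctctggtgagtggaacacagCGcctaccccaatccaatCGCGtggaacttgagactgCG

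The stretches differ in how the CpG are set. The Tenm3 stretch, all coding, holds 29 CpG in 200 bases. The Numbl stretch, 86.5% of it coding and the rest intron, holds 22, and that of the Lrp3 promoter 8. In the Frmd4a and Bzw2 introns the same short unit with its CpG recurs along the stretch.

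Of the 608 CpG-dense DMRs, 337 had the higher mean in MMS and 271 in control. The share higher in MMS was 55.4%, where 62.4% of all listed autosomal DMRs and 62.7% of the other autosomal DMRs were higher in MMS. The share higher in control was 44.6%, where the list as a whole had 37.6%. Across the list the share higher in MMS was 73.0% in DMRs under 0.5 CpG per 100 bp, 61.4% between 1 and 1.5, 55.9% between 2.5 and 3 and 54.7% between 3 and 3.5. Above that density it stayed between 55.3% and 62.5%, the last of these over 32 DMRs with 5 or more CpG per 100 bp. The fall with density thus lay below the threshold of 3, and no further fall was seen above it.

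**Figure D1:**
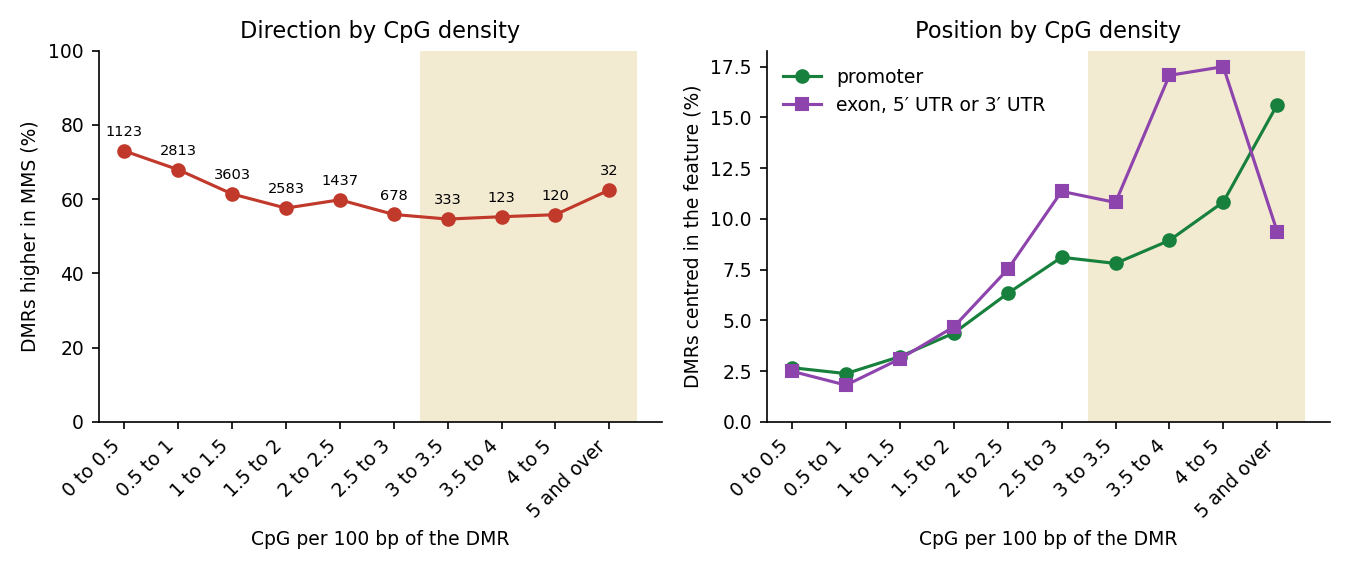
Share of listed autosomal DMRs higher in MMS (left, percent, with the number of DMRs above each point) and share centred in a promoter or in an exon or UTR (right, percent) by CpG per 100 bp. The shaded bands are the CpG-dense DMRs, whose share higher in MMS lies between 54.7% and 62.5%, and both shares on the right are larger there than in the bands under 2 CpG per 100 bp.

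The size of the difference, MMS minus control on the log2 scale, was like that of the rest of the list. Its median was 3.42 in the CpG-dense DMRs higher in MMS and 3.43 in the others. In those higher in control it was -1.76 against -1.73. In CpG-dense DMRs higher in MMS the median control level was 0.20 and the median MMS level 3.99. In those higher in control these medians were 5.05 and 3.28. A difference of at least 2 towards MMS was held by 309 DMRs and towards control by 93, or 66.1% of the CpG-dense DMRs together, where 69.7% of all listed autosomal DMRs passed it, 56.1% higher in MMS and 13.6% higher in control. The largest differences were 5.42 and -5.00, while the other DMRs reached 8.14 and -8.19.

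Many differences rested on a group at the lowest value of the table, -0.17 in control and -0.24 in MMS. Control lay within 0.5 of it in 188 of the 337 CpG-dense DMRs higher in MMS (55.8%, against 52.5% in the other DMRs). MMS did so in 11 of the 271 higher in control, or 4.06%. Where neither group was at its lowest value, 409 CpG-dense DMRs remained and 149 of them, or 36.4%, were higher in MMS, against 45.6% of the other DMRs. Among these the median difference was 2.62 towards MMS and -1.73 towards control. A listed DMR with control at its lowest value can only be higher in MMS, so leaving such DMRs out lowers the share in both sets.

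**Figure D2:**
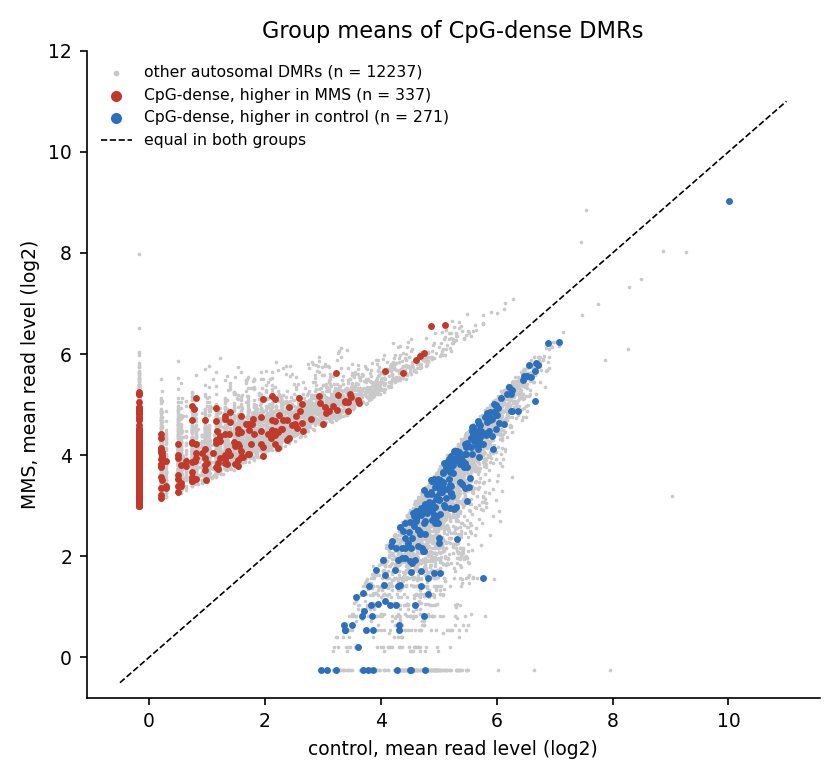
Mean level in MMS against mean level in control, both in log2 normalised reads, for the 337 CpG-dense DMRs higher in MMS (red), the 271 higher in control (blue) and the other autosomal DMRs (grey). The dashed line marks equal means, and 188 of the red points lie within 0.5 of the lowest control value of -0.17.

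Direction also went with the level of reads. With a mean over all libraries of up to 3 on the log2 scale, 141 of 158 CpG-dense DMRs were higher in MMS (89.2%, against 97.1% of the other DMRs). Between 3.5 and 4 the share was 56.9% against 67.2%, and over 5 it was 8.97% against 16.6%. It was lower in the CpG-dense DMRs in each of the 6 bands of level. The median width of the CpG-dense DMRs was also smaller, 307.5 bp against 560 bp, and their share higher in MMS was below that of the others in each of 5 bands of width, for example 46.9% against 49.9% up to 200 bp and 65.4% against 73.0% from over 300 to 500 bp. Level and width moved with the direction, and their part in it was described by these bands and not tested. Density itself was nearly unrelated to level (Spearman correlation -0.093) and to the size of the difference (0.040) across the 608 regions, which share the same libraries.

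**Figure D3:**
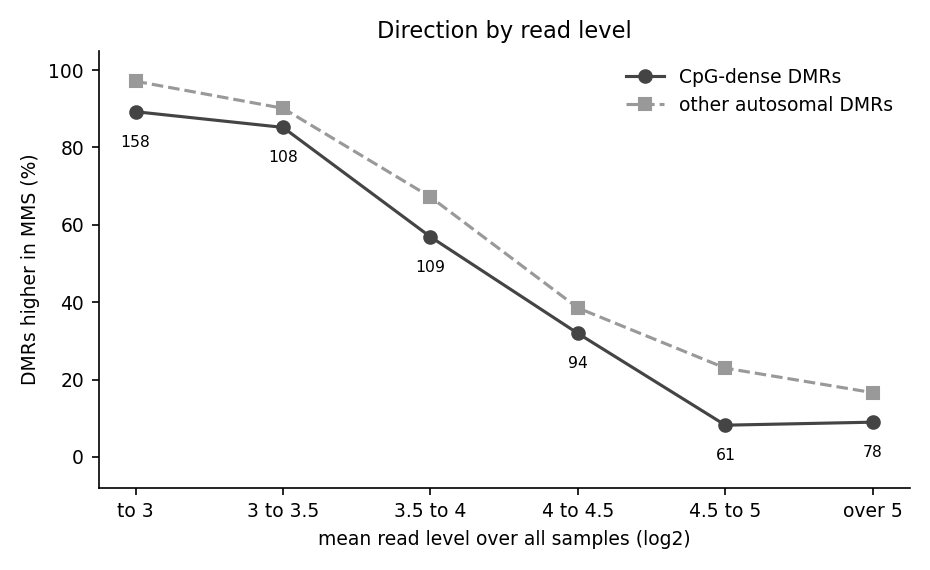
Share of DMRs higher in MMS (percent) by the mean read level over all libraries (log2), for CpG-dense DMRs (circles, with their number under each point) and other autosomal DMRs (squares). The share falls from 89.2% to 8.97% in the CpG-dense DMRs and lies under that of the other DMRs in every band.

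The CpG-dense DMRs lay nearer to genes than the rest of the list. Their centre was in a promoter in 55 (9.05% against 3.86% of the other DMRs), in an exon in 64 (10.5% against 2.94%) and within reach of a transcription end in 60 (9.87% against 4.29%). A further 2 were centred in a 5′ UTR and 15 in a 3′ UTR. Introns held 232 (38.2% against 46.1%) and intergenic DNA 180 (29.6% against 41.6%). Coding sequence was touched by 144 (23.7% against 8.25%) and made up at least 50% of the length in 47 (7.73% against 0.948%). A start site of a protein-coding gene lay within 2 kb of 94 (15.5% against 8.75%). CpG-dense sequence is more common in promoters and exons throughout the genome, so the rule itself favours these places. DMRs with 2 to 3 CpG per 100 bp were close to the CpG-dense ones in their distance to start sites, with 13.3% within 2 kb.

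**Figure D4:**
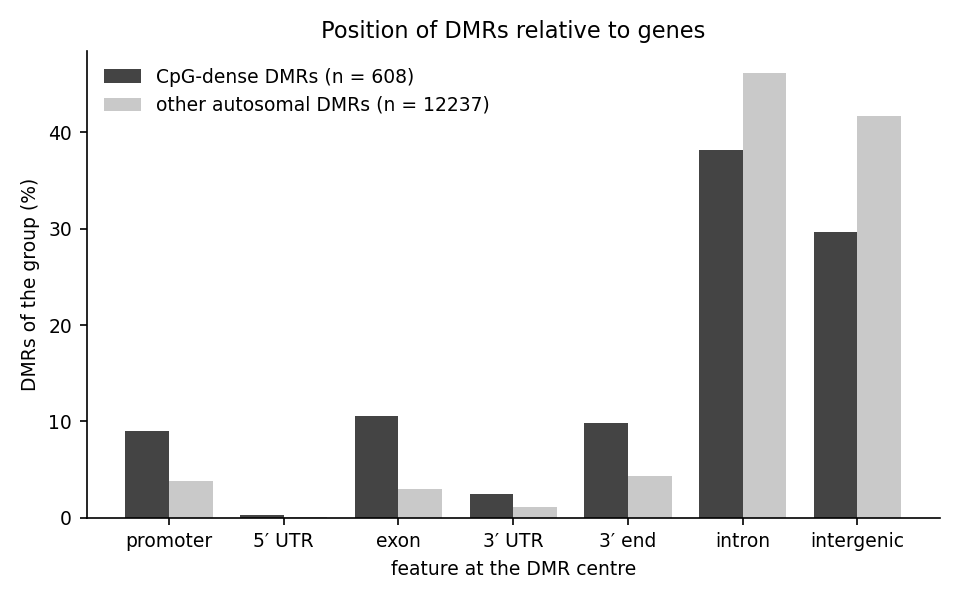
Share of CpG-dense DMRs (dark) and of other autosomal DMRs (light) centred in each feature (percent of the group). Promoters, exons and 3′ ends hold a larger share of the CpG-dense DMRs, and introns and intergenic DNA a smaller one.

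Direction was then read by position, with no test of the difference between places. Of the 55 in promoters 35 were higher in MMS (63.6%, against 64.8% in promoters of the other DMRs), and of the 60 at transcription ends 28 were (46.7% against 59.0%). In exons 37 of 64 were higher in MMS (57.8% against 59.4%). In introns the share was 55.2% against 62.4%, and in intergenic DNA 55.0% against 63.6%. Promoters and exons thus had nearly the share of the other DMRs in those places, while the shares lay farther apart in introns, intergenic DNA and transcription ends.

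In promoters of protein-coding genes 25 of 34 CpG-dense DMRs were higher in MMS, or 73.5%, against 64.9% of 305 other DMRs there. The median difference was 3.41 for the 25 and -1.32 for the 9 higher in control. The largest was in the promoter of Trim80, at -0.17 in control and 4.45 in MMS, a region that is repeat sequence over 72.0% of its length and has 1682 partial alignments elsewhere in the genome. Phf23, a PHD finger protein, followed with -0.17 in control and 4.13 in MMS over 14 CpG in 254 bp, within a CpG island and 135 bp upstream of its start site. Plekhg3 had -0.17 and 4.12. In these promoters control was at its lowest value.

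The Ccdc158 promoter had -0.17 in control and 3.97 in MMS, the Fam184a promoter -0.17 and 3.74, and that of Nrg2, a neuregulin that signals through ErbB receptors, 0.20 and 4.12. The Rexo1 promoter, with 18 CpG in 233 bp and a density of 7.73 per 100 bp, had 0.50 in control and 3.61 in MMS. Coding sequence made up 47.8% of the Ccdc158 DMR, 55% of the Nrg2 DMR and 31.8% of the Rexo1 DMR. Plxnd1, a semaphorin receptor of vessels and axons, had 2.18 in control and 4.39 in MMS, so both groups lay well above their lowest value. Col19a1, a collagen, likewise had 2.61 and 4.88 in its promoter.

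The promoters higher in control changed less. Lrp3, a receptor of the LDL receptor family, had 5.54 in control and 3.55 in MMS, which is 3.97-fold lower in MMS. Tcf19 had 4.61 and 2.73, and Sarnp, a nuclear protein of messenger RNA export, 4.68 and 2.87. Coding sequence made up 24.3% of the Tcf19 DMR and, as part of Dnajc14, 61.7% of the Sarnp DMR. Nr2c2, an orphan nuclear receptor, had 5.12 and 3.76 in a DMR that is 48.0% coding. Sphk2, a sphingosine kinase, had 5.61 and 4.29, and Aacs, an enzyme that activates acetoacetate, 5.47 and 4.17. In all 6 of these MMS lay above its lowest value, and none of the 9 promoters higher in control had MMS at its lowest value.

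Coding exons, with the UTRs of protein-coding genes, held 70 CpG-dense DMRs, of which 39 were higher in MMS and 31 in control (55.7% higher in MMS, against 59.7% of 365 other DMRs there). The largest difference of all 608 was in Cdh10, a cadherin of neurons, at -0.17 in control and 5.25 in MMS. It spans 466 bp with 24 CpG, and 96.1% of it is coding sequence, although its centre counts as 3′ UTR in a shorter transcript. Trim71, an RNA-binding ubiquitin ligase of early development, had -0.17 and 4.81 over 45 CpG in a coding exon that is also a CpG island. Tbc1d22b had -0.17 and 4.93 in its 3′ UTR, and Ifnar2, a chain of the type I interferon receptor, -0.17 and 4.46.

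In several exons control lay more than 0.5 above its lowest value. Tenm3, a teneurin that guides the wiring of neurons, had 1.32 in control and 4.41 in MMS over 63 CpG in 814 bp, an 8.51-fold difference in an exon that is a CpG island. Adcy3, the adenylyl cyclase of primary cilia, had 0.77 and 4.92. Chd5, a chromatin remodeller of neurons, had 2.12 and 5.18.

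Exons higher in control were led by Adarb2, from a family of RNA editing enzymes, at 3.86 in control and -0.24 in MMS, in a 3′ UTR of which the DMR is 70.3% repeat with 820 partial alignments elsewhere. Numbl, an inhibitor of Notch signalling in neural progenitors, had 4.32 and 0.54 over 32 CpG in 652 bp. Fry, a large scaffold protein, had 3.6 in control and 0.20 in MMS in a DMR of 152 bp that is coding over its full length. Ppp2r5c, a regulatory subunit of protein phosphatase 2A, had 5.31 and 2.34. Numbl and Fry had no alignment elsewhere.

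**Figure D5:**
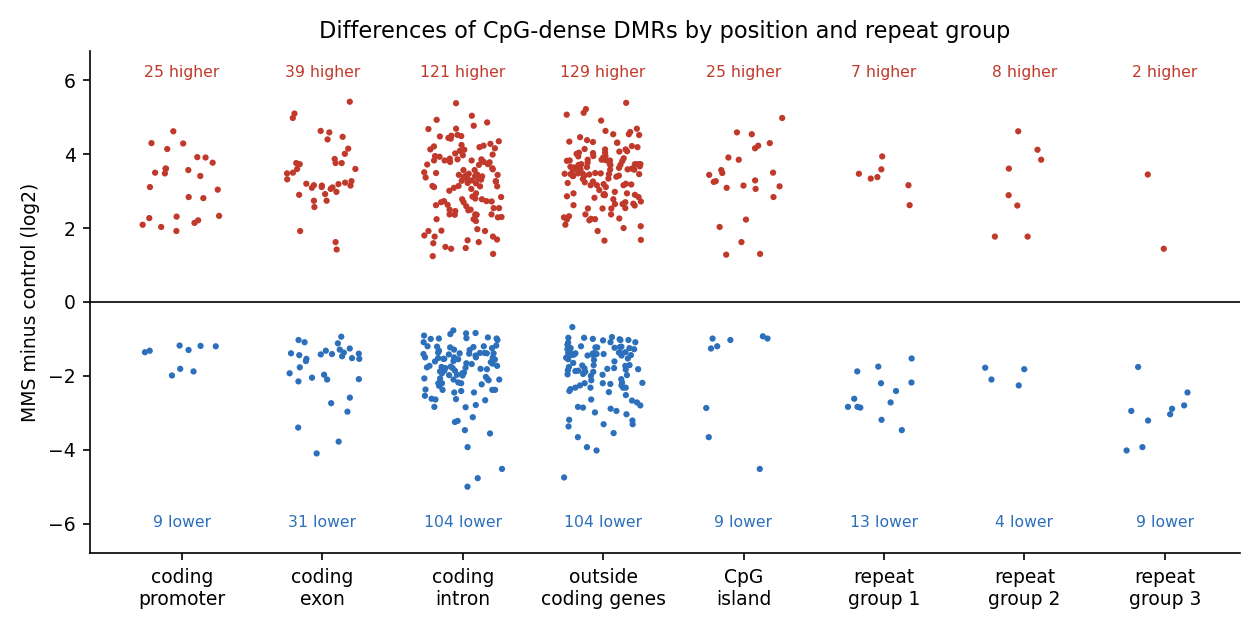
Difference, MMS minus control (log2), of each CpG-dense DMR by position and repeat group, with the number higher and lower in MMS printed above and below. Coding promoters (25 higher, 9 lower) and CpG islands (25 higher, 9 lower) have more points above 0 than below, and repeat groups 1 (7 higher, 13 lower) and 3 (2 higher, 9 lower) more below, where 62.4% of all listed autosomal DMRs are higher in MMS.

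CpG islands were located in the reference by the usual criteria of length, GC content and CpG content, which gave 16510 on the autosomes. Of the CpG-dense DMRs 34 touched one (5.59% against 0.180% of the other DMRs) and 42 more lay within 2 kb (6.91% against 3.56%). The remaining 532, or 87.5%, were CpG-dense sequence farther from any island. Of the 34 at islands 25 were higher in MMS (73.5%), and of the 42 nearby 30 were (71.4%, against 66.97% of the other DMRs that near). Of the 532 farther away 282 were (53.0%, against 62.5% of the other DMRs that far from an island). The 22 other DMRs at islands were higher in MMS in 68.2%. The islands were not promoters alone, since 8 of the 34 were centred in promoters, 9 in exons, 9 in introns, 4 at transcription ends and 4 between genes.

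Mbnl2, a regulator of splicing, held an island DMR of 1613 bp with 56 CpG in an intron, at 0.75 in control and 4.98 in MMS. Dlgap1, a scaffold of the postsynaptic density, went the other way in an island DMR of 3219 bp with 97 CpG, at 6.71 in control and 5.78 in MMS. A second Dlgap1 DMR in a coding exon had 5.25 and 3.65. The highest level of all was at Sfi1, beside Drg1, in an island DMR of 1596 bp at 10.01 in control and 9.02 in MMS. At such levels the differences between the groups were small and favoured control.

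Among the larger differences not counted in promoters or exons, with both groups more than 0.5 above their lowest value, were the following, beside Mbnl2 above and AI506816 below. Upstream of Ankrd55, 139350 bp from its start, a DMR had 0.81 in control and 5.14 in MMS. At an annotated transcript end of Timeless, a protein of replication forks and the circadian clock, lay a DMR with 19 CpG that is 35.3% coding. This DMR had 5.76 in control and 1.58 in MMS, or 18.1-fold lower. An intron of Agps, an enzyme of ether lipid synthesis, had 4.75 and 0.82.

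The largest difference in favour of control was in an intron of Slc38a1, a glutamine transporter of neurons, with 4.76 in control and -0.24 in MMS over 6 CpG in 181 bp. Introns of Gdpd4 (4.53 and -0.24) and Gm16675 (4.51 and -0.24) followed. In favour of MMS, a DMR centred in an intron of Engase, 38.6% of it coding, had -0.17 in control and 5.21 in MMS. It held 27 CpG in 817 bp. All of these DMRs had the lower group at its lowest value.

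The densest DMR, with 17 CpG in 202 bp or 8.42 per 100 bp, lay within Cbfb, a subunit of RUNX transcription factors, and had 5.22 in control and 3.25 in MMS. Upstream of Fmnl3, a formin, 93 CpG in 1138 bp gave 8.17 per 100 bp, with 2.27 in control and 4.51 in MMS. These were repeat sequence over 60.9% and 71.9% of their length. Next to the threshold, the least dense members lay near Scaf4 (9 CpG in 300 bp, 5.32 and 4.08), in Slc22a7 (5.71 and 4.59) and in Acvrl1 (3.23 and 5.63). Just under it lay DMRs near Srek1ip1 (5.19 and 3.82), in Eppin (6.91 and 5.94) and in Elmo1 (1.46 and 4.06).

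Repeats were a second source of CpG. Soft-masked sequence, which marks known repeats in the reference, made up at least 50% of 147 CpG-dense DMRs (24.2% against 17.01% of the other DMRs), while 111 had none (18.3% against 9.08%). Of the 147, 82 were higher in MMS (55.8%, against 67.5% of the other DMRs with that much repeat). In 140 of the 608 a stretch of at least 100 bp aligned elsewhere in the genome at 95% identity or more, and in 30 at least 90% of the DMR did. An alignment over at least 90% of the DMR is called a full copy below, and alignments rather than separate places were counted. Reads from sequence that aligns elsewhere cannot be placed with certainty. Of the 140, 84 were higher in MMS (60%), and of the 468 with no such alignment 253 were (54.1%).

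Alignments between the DMRs themselves linked 65 of them into 10 groups of related sequence, with 33 higher in MMS and 32 in control. The largest, repeat group 1, held 20 DMRs on 14 chromosomes, of which 7 were higher in MMS and 13 in control. Its members in introns of Nav3, Pkhd1, Snd1 and Gm33251 repeated with a period of 208 bp and a CpG-rich unit. Young mouse LINE-1 elements are known to carry CpG-rich promoters made of tandem units of such a kind, but repeat names were not used here. The Pkhd1 member, with 2221 full copies elsewhere, had 3.23 in control and -0.24 in MMS. The Nav3 member, with 1181 full copies, went the other way from -0.17 to 3.21. Sequence alike in this way was thus listed with opposite directions.

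Repeat group 2 held 12 DMRs, 8 higher in MMS, among them the Trim80 promoter. Repeat group 3 held 11 DMRs on 9 chromosomes, of which 9 were higher in control, with a median difference of -2.95. Its Nyap2 member had 3.78 in control and -0.24 in MMS with 537 full copies elsewhere, its Olfr1356 member 3.69 and -0.24, and its Clnk member 3.85 and 0.81 with 514 full copies. The 2 that were higher in MMS lay near 1500009L16Rik (-0.17 and 3.28) and in an intron of Atp8b5 (3.44 and 4.88). The 7 smaller groups together held 22 DMRs, of which 16 were higher in MMS. The longest CpG-dense DMR of all, 6396 bp with 227 CpG in an intron of AI506816, had 3 full copies elsewhere and 0.75 in control against 4.70 in MMS.

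Tandem arrays were partly among these repeats. In 52 CpG-dense DMRs at least 20% of all words of 12 bases occurred more than 1 time within the DMR (8.55% against 3.10% of the other DMRs), and 29 of the 52 were higher in MMS (55.8%, against 70.98% of the other DMRs of this kind). Of the 52, 12 matched themselves in at least 70% of bases when shifted by 1 unit, of 24 to 409 bp. The 5 of these in repeat group 1 were higher in MMS in 1 case and in control in 4, and the 7 outside it in 3 and 4 cases. The Bzw2 intron carried about 34.0 units of 74 bp, 101 CpG in all, with 4.28 in control and -0.24 in MMS. Bzw2 codes for a regulator of translation. The Frmd4a intron carried about 14.9 units of 37 bp and had 0.81 in control and 3.94 in MMS. An array of 26 bp units upstream of Eif2b2, a subunit of a translation initiation factor, had 4.31 and 0.65, and units of 35 bp in an intron of Lmo7 had 1.56 and 4.19. Bzw2, Frmd4a, Eif2b2 and Lmo7 had no alignment elsewhere.

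Gene groups relevant to the tissue and to early stress were looked at next. A DMR was counted for each gene whose body it overlapped, and for each protein-coding gene whose promoter it overlapped. A nearest gene without such an overlap was not counted. Over all 608 the median difference was 2.12, and over all listed autosomal DMRs it was 2.41. Genes of matrix and basement membrane held 6 CpG-dense DMRs, all higher in MMS, with a median difference of 3.07. They were Col4a4 (-0.17 and 4.25), Lamb2 (-0.17 and 3.90), Col25a1 (-0.17 and 3.27), Tnc (1.31 and 4.01), Adamts17 (1.72 and 4.02) and Col19a1. Of all 86 listed DMRs of that group 61.6% were higher in MMS. Soft-masked bases made up 95.2% of the Col4a4 DMR, which had 5141 partial alignments elsewhere, so its reads cannot be placed with certainty. They made up 88.5% of the Adamts17 DMR and at most 33.3% of the other matrix DMRs, the latter value in Col19a1.

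Developmental transcription factors held 4, also all higher in MMS, against 66.3% of their 86 listed DMRs. A pair lay in introns of Prdm16, a regulator of brown fat and neural stem cells, at -0.17 and 4.31 over 37 CpG and at -0.17 and 3.56. Sox5 had -0.17 and 3.14 in an intron, and a DMR upstream of Dlx3 that reaches its promoter had 2.64 and 4.64. The 3 of cadherins, Cdh10, Pcdhb9 (1.39 and 4.66) and a DMR in an intron of Fat1 that is also an exon of the noncoding gene Gm2366 (2.12 and 4.48), were higher in MMS, as were 70.2% of the 47 listed DMRs of that group. Rasgrf1, an exchange factor known to be imprinted in mouse, was higher in control in an exon (5.79 and 4.76).

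Other groups were split. Ion channels held 3 in each direction (66.2% of their 148 listed DMRs were higher in MMS), with Cacna1c (-0.17 and 4.51) and Scn8a (-0.17 and 4.48) higher in MMS and Piezo2 (5.86 and 4.48) higher in control. Solute carriers held 6 in each direction (62.4% of all 165) and zinc finger proteins 3 in each (54.5% of all 99). Chromatin enzymes held 2 in each (65.6% of all 61), with Kdm4a (0.20 and 4.15) and Chd5 higher in MMS and Hdac4 (4.52 and 1.69) and Kdm2b (5.83 and 4.65) higher in control. Of 6 in FGF, Wnt, BMP, Hedgehog and Notch signalling 4 were higher in MMS (67.2% of all 64), among them Fgfr1 (-0.17 and 3.59) and Tcf7l2 (0.75 and 4.24), while Lrp6 (5.45 and 3.36) was higher in control. Axon guidance held 3 (52.6% of all 57 listed were higher in MMS), with Plxnd1 higher in MMS and Epha6 (3.83 and 1.04) and Ephb6 (4.84 and 3.07) higher in control. The Epha6 DMR is repeat sequence over 98.7% of its length, with 56 full copies elsewhere.

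Scaffolds and receptors of glutamate and GABA synapses held 4 (64.3% of their 84 listed DMRs were higher in MMS), with Gabbr2 (-0.17 and 3.30) and Gphn (-0.17 and 3.25) higher in MMS and both Dlgap1 DMRs higher in control. In the list of imprinted genes used here, Slc38a1 and Sfmbt2 (5.09 and 3.02) were the only 2 and both were higher in control, where 66.7% of the 42 listed DMRs of that group were higher in MMS. This list of imprinted genes did not hold Rasgrf1, which is given above. The myelin gene Mbp (2.59 and 5.13) was the only glial marker, where 66.7% of the 9 listed DMRs of glial markers were higher in MMS. Neuropeptides, hormones and their receptors held no CpG-dense DMR among their 25 listed DMRs, and genes of the glucocorticoid response with immediate early genes none among 7, where 4.73% of the list is CpG-dense. Such small counts describe these regions only.

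CpG-dense DMRs were spread over 369 genes, and 14 genes held more than 1. Mark1, a kinase of microtubule-associated proteins, held 3 within 100 kb that did not share a direction. The first, at an annotated transcript end and 51.5% coding, had 4.88 in control and 3.01 in MMS. The next had -0.17 and 4.32, and the last, in an intron, had 6.21 and 5.34. The Camta1 pair likewise differed (5.22 and 3.90, then 1.59 and 4.09), as did the Cep120 pair (4.97 and 3.47, then -0.17 and 4.33), while both Cpm DMRs were higher in control (5.92 and 4.38, then 5.95 and 5.01). Another listed DMR lay within 10 kb of 109 CpG-dense DMRs (17.9% against 14.5% of the other DMRs), and the nearest had the same direction in 57 of them, as in 940 of 1774 other DMRs with such a neighbour.

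Binding motifs that contain CG were looked for on both strands in the central 141 bp, the width of the narrowest listed DMR. The E-box CACGTG was present in 5.76% of CpG-dense DMRs and 2.89% of all autosomal DMRs, the ZFP57 motif TGCCGC in 5.43% and 1.71%, and the SP1 motif GGGCGG in 6.25% and 2.60%. The rule on CpG favours such letters. By direction, the E-box was in 6.53% of the CpG-dense DMRs with the higher mean in MMS and 4.80% of those with the higher mean in control, and the SP1 motif in 6.23% and 6.27%. The AP-1 motif TGACTCA, which holds no CG, was present in 1.81% and 2.16% of all. The CRE motif TGACGTCA was in none of the CpG-dense DMRs and in 0.109% of all.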

How the data were processed

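Hypothalamic DNA from 3 control and 3 MMS pools was immunoprecipitated for methylcytosine and sequenced. The authors used Torrent Suite 5.2 for alignment to mm10 and MACS2 2.1 for broad peaks and compared groups with DiffBind, and their deposited log2 values are means of normalised reads over all libraries and over each group. Deposited columns of fold change, p-value and FDR hold the authors' own comparison and were not used. No column of a single library was present to use, so no test between groups was made and the reads of each library behind a value cannot be given. The columns named untreated and treated were read as control and MMS, and the difference is MMS minus control.

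CpG, GC and soft-masked bases were counted in GRCm38.p6. Features came from GENCODE vM21 transcripts by the DMR centre. A promoter ran from 1000 bp before a start site to 100 bp after it, and a transcription end from 100 bp before to 1000 bp after, which are the HOMER windows. These took precedence over UTRs (5′ first), then exons, then introns. Islands scored 17 for CG and -1 otherwise over unmasked sequence, and were longer than 200 bp with at least 50% GC and an observed to expected CpG ratio over 0.6, by code tested on simulated sequence. Copies were found with BLAST 2.17.0 (word size 40, 95% identity, 100 bp). The work used Python 3.11.15, numpy 2.4.6, pandas 2.3.3, scipy 1.17.1 and matplotlib 3.10.9.

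The members and gene lists were chosen with earlier results of these data known. Named DMRs were the largest differences in each direction, over all members, in coding promoters, in coding exons and in each gene list, the densest, those with most CpG, the highest level, genes with several, and the nearest to the threshold. Members of the repeat groups and tandem arrays, Plxnd1 and Col19a1 beside the promoters, and Chd5 beside the exons were named after their values were seen. Some DMRs and 1 gene list that this rule names are not reported here. Alternatives were other densities, widths, masks, features and lowest values.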

Additional observations from a re-analysis of the deposited data

How the results depend on the processing

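Of 73 recomputed values under the alternatives, 56 stayed within the 95% binomial interval of the value reported and 17 moved beyond it. The share higher in MMS, 55.4%, moved to 76.9% with a difference of at least 2 and to 36.4% without DMRs that had a group at its lowest value, which removes 188 higher in MMS and 11 higher in control, and there the median difference in DMRs higher in MMS moved to 2.62. The median in DMRs higher in control moved to -2.62 with a difference of at least 2, to -1.97 at 4 or more CpG per 100 bp and to -1.87 under island criteria. The share in promoters moved to 11.8% at 4 or more CpG per 100 bp, 12.5% under island criteria, 17.3% when promoters ran from 2000 bp before to 500 bp after the start, 12.5% with any overlap and 5.59% with protein-coding genes. The share in exons or UTRs, 13.3%, moved to 17.04% from 300 bp of width and 16.7% under 50% repeat. The share of DMRs higher in MMS with control at its lowest value, 55.8%, moved to 65.5% at 4 or more CpG per 100 bp, 49.5% from 300 bp of width, 49.3% exactly at that value and 64.7% within 1 of it. Without DMRs that align elsewhere, or that repeat inside themselves, alternatives chosen after the data had been seen, all 6 values stayed within their intervals. These intervals treat regions as independent, which they are not. No paired analysis was possible because the table holds group means, and for the same reason no pool could be left out. The table gives no read counts, so how far the lowest values differ from 0 reads cannot be given.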
